A study of Mus musculus with 28 samples.

Results

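The mitochondrial ribosomal proteins were taken as every gene whose name, or one of whose joined names, begins with Mrpl (large subunit) or Mrps (small subunit) followed by a number. The RNA table held 37 such genes among 3147, of which 23 were of the large subunit and 14 of the small subunit. The footprint table held 65 among 6250, with 41 of the large and 24 of the small subunit, and 32 genes stood in both tables. The cells were dendritic cells grown with GM-CSF from the bone marrow of female C57BL/6J mice aged 6 to 8 weeks. On day 9 of culture they received 100 ng per ml of lipopolysaccharide (LPS), the outer membrane component of Gram-negative bacteria sensed by Tlr4, or a mock treatment without stimulus. All cells, controls included, were moved at time 0 from one isotope-labelled amino acid medium to another. Polyadenylated RNA was sequenced at 0 h and at 1, 2, 4, 6, 9 and 12 h in each arm, with 2 libraries in each of 13 groups, and ribosome footprints came from 2 libraries of resting cells.

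Mitochondria make a few membrane proteins of the respiratory chain on their own ribosomes. The RNA of these ribosomes comes from the mitochondrial genome, while their proteins, the Mrpl and Mrps proteins, are encoded in the nucleus, made in the cytosol and imported. Some are relatives of bacterial ribosomal proteins and others occur only in mitochondria. In dendritic cells and macrophages, LPS is known to shift energy metabolism away from respiration towards glycolysis.

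RNA levels are given as TPM, transcript abundance per length with a fixed total over the listed genes, so a level is always relative to the other genes of the table and read depth is unknown. A gene was called where limma's adjusted p over all genes of the table was under 0.05, with fold changes and their standard errors (SE) on the scale of log2(TPM + 1). Since no label states that paired libraries derive from independent cultures, the p-values reflect variation among the deposited libraries and could hold technical variation alone. Of the defining markers checked, 6 of 12 dendritic cell genes, 7 of 13 granulocyte genes and 3 of 7 macrophage genes were listed, none of them at 0 in any library. No listed gene was a B cell, T cell or red cell precursor marker. The listed genes are a selection, so a marker that is not listed does not show that its cells were absent. All 37 genes passed the minimum of 1 TPM in at least 2 libraries, as did every other gene. Mean levels over the 26 RNA libraries ran from 12.4 to 384 TPM with a median of 51.1, against a median of 72.9 TPM for all genes.

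In the TPM as deposited, LPS lowered the RNA of most mitochondrial ribosomal proteins of both subunits, and the lower level lasted to the end of the time course. With each library rescaled by its median gene ratio, 17 of the 37 genes were called lower over 6, 9 and 12 h and 3 higher. The shares of all genes were then 25.9% and 26.2%. As deposited, the summed RNA of the 37 genes was between 3147 and 3413 TPM in the 14 mock and 0 h libraries. In the LPS libraries it was 2880.5 and 2361 TPM at 1 h, 2093 and 2149 TPM at 2 h, and 1926 and 1832 TPM at 4 h. It then was 1882 and 1963 TPM at 6 h, 1943 and 2223 TPM at 9 h, and 1981 and 2323 TPM at 12 h. All 12 LPS libraries thus lay below all 14 unstimulated ones, with the mean of the LPS libraries at 58.9% of the matched mock mean at 4 h and 65.1% at 12 h. After each library was rescaled by its median gene ratio, the LPS mean was 80.7% of mock at 4 h and 84.3% at 12 h. The rescaled LPS sums still lay below both mock libraries of the same hour, but 1 LPS library at 9 h (2745) and 1 at 12 h (2833) fell within the 2693 to 3132 of the 14 unstimulated libraries. In bulk RNA, fewer cells of a type and less RNA per cell cannot be told apart. Of the marker lists, summed dendritic cell RNA in the late libraries (6, 9 and 12 h) ran from 12021 to 21588 TPM with LPS and 9425 to 18454 TPM with mock. Summed granulocyte RNA ran from 1165 to 3043 TPM with LPS and 2492 to 7193 TPM with mock, with 2 of 7 genes called lower and 1 higher late. Summed macrophage RNA ran from 317 to 532 TPM with LPS and 476 to 586 TPM with mock, with 2 of 3 genes called lower and 1 higher late. The part of these cells in the result was not tested.

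**Figure D1:**
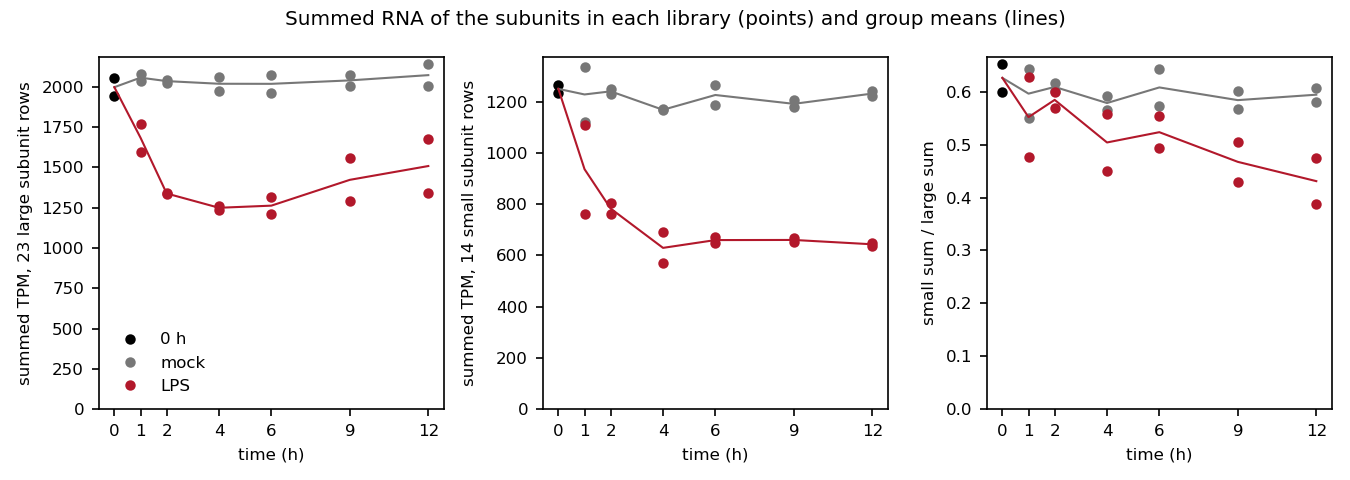
Summed RNA of the 23 large subunit genes (left), of the 14 small subunit genes (middle) and the small to large ratio (right), by time in hours, with each library as a point and group means as lines. The summed RNA of the LPS libraries lay below that of the mock libraries of the same hour at every time, and the 12 h ratios were 0.474 and 0.388 with LPS against 0.581 and 0.608 with mock.

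The late effect, the mean of the LPS minus mock differences at 6, 9 and 12 h, was called lower for 26 of the 37 genes and higher for 1. Among all genes tested, 47.7% were called lower and 15.5% higher. The median log2 fold change was -0.83 for the 37 genes and -0.43 for all genes. Rescaling each library by its median gene ratio moved the median of all genes to -0.03 and that of the mitochondrial ribosomal proteins to -0.42, with 17 called lower and 3 higher against a background of 25.9% and 26.2%. All 27 late calls held when any 1 of the 12 late libraries was left out, while 9 of them were lost on rescaling (Mrpl11, Mrpl15, Mrpl17, Mrpl37, Mrpl39, Mrpl43, Mrpl45, Mrps7 and Mrps21). In 19 genes the 6 late LPS libraries all lay below the 6 late mock libraries (30.2% of all genes) and in 1 they all lay above (10.3% of all genes).

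Mrps5, a small subunit protein with a bacterial counterpart, had the largest late fall. Its levels were 6.91, 12.0 and 19.2 TPM (lowest, median and highest) in the 6 late LPS libraries and 29.5, 36.6 and 63.1 TPM in the 6 late mock libraries, after 30.0 and 61.9 TPM at 0 h. The LPS libraries were all lower, and the late log2 fold change was -1.66 ± 0.27 (SE, limma adjusted p = 5.85e-05). Mrpl12, which forms the flexible stalk that recruits translation factors to the large subunit, had 51.4, 66.4 and 108 TPM with LPS against 201, 215 and 244 TPM with mock and 227 and 223 TPM at 0 h. These groups also did not overlap, and the late log2 fold change was -1.65 ± 0.11 (limma adjusted p = 1.63e-09). Mrpl47, a large subunit protein beside the exit of the peptide tunnel, had 9.93, 15.2 and 19.9 TPM with LPS against 36.7, 47.0 and 69.2 TPM with mock, and 32.5 and 63.4 TPM at 0 h. It was lower in all 6 LPS libraries, by a log2 fold change of -1.64 ± 0.19 (limma adjusted p = 1.25e-06).

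Mrpl28, a large subunit protein of bacterial type, had narrow groups that lay far apart. Its late levels were 48.1, 51.4 and 66.6 TPM with LPS and 156, 158 and 197 TPM with mock, after 147 and 162 TPM at 0 h, and the log2 fold change was -1.57 ± 0.10 (limma adjusted p = 1.09e-09). Mrps26, a small subunit protein found only in mitochondria, had 35.4, 43.3 and 89.4 TPM with LPS, 113, 141 and 174 TPM with mock, and 105 and 189.8 TPM at 0 h. Its highest LPS library, the second at 9 h, was still below the lowest mock library, and the log2 fold change was -1.49 ± 0.22 (limma adjusted p = 1.83e-05). These 5 genes, and the next in order, Mrps2 (-1.46 ± 0.26) and Mrps27 (-1.42 ± 0.18), differed from their neighbours in this order by less than 1 SE, so the order is not resolved. All 7 kept their late call on rescaling, with log2 fold changes from -1.28 (Mrps5) to -1.06 (Mrps27).

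Mrpl13 was the 1 gene that rose. It encodes a large subunit protein with a bacterial counterpart. Its late levels were 182, 218 and 268 TPM with LPS, above the 107, 127 and 139 TPM of the mock libraries and the 128 and 145 TPM at 0 h. The 2 arms did not overlap, and the late log2 fold change was 0.80 ± 0.11 (limma adjusted p = 7.04e-06), or 1.202 after rescaling. At 1, 2 and 4 h its LPS libraries, from 126 to 165 TPM, lay within the 135 to 173 TPM of the mock libraries or just below them.

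The other genes at the top of the order showed no called late change as deposited. Mrpl53, a large subunit protein found only in mitochondria, had 20.1, 36.3 and 42.8 TPM with LPS against 26.7, 30.3 and 33.7 TPM with mock (0.18 ± 0.21). Mrpl27, of bacterial type and placed near the catalytic centre, had 148, 162 and 183 TPM with LPS against 126, 159 and 175 TPM with mock (0.09 ± 0.14). In both the arms overlapped, and both were called higher on rescaling, with log2 fold changes of 0.58 for Mrpl53 and 0.50 for Mrpl27. Mrps22, a mitochondria-specific small subunit protein, had 11.0, 12.8 and 18.8 TPM with LPS against 8.10, 13.7 and 22.2 TPM with mock (-0.01 ± 0.24). Mrpl14, a large subunit protein of the face between the subunits, had 116, 165 and 379 TPM with LPS against 168, 226 and 317 TPM with mock (-0.21 ± 0.24). Its replicates split late with LPS, at 148 and 379 TPM at 9 h and 181 and 370.3 TPM at 12 h, so its groups overlapped and its mean rests on the second libraries.

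**Figure D2:**
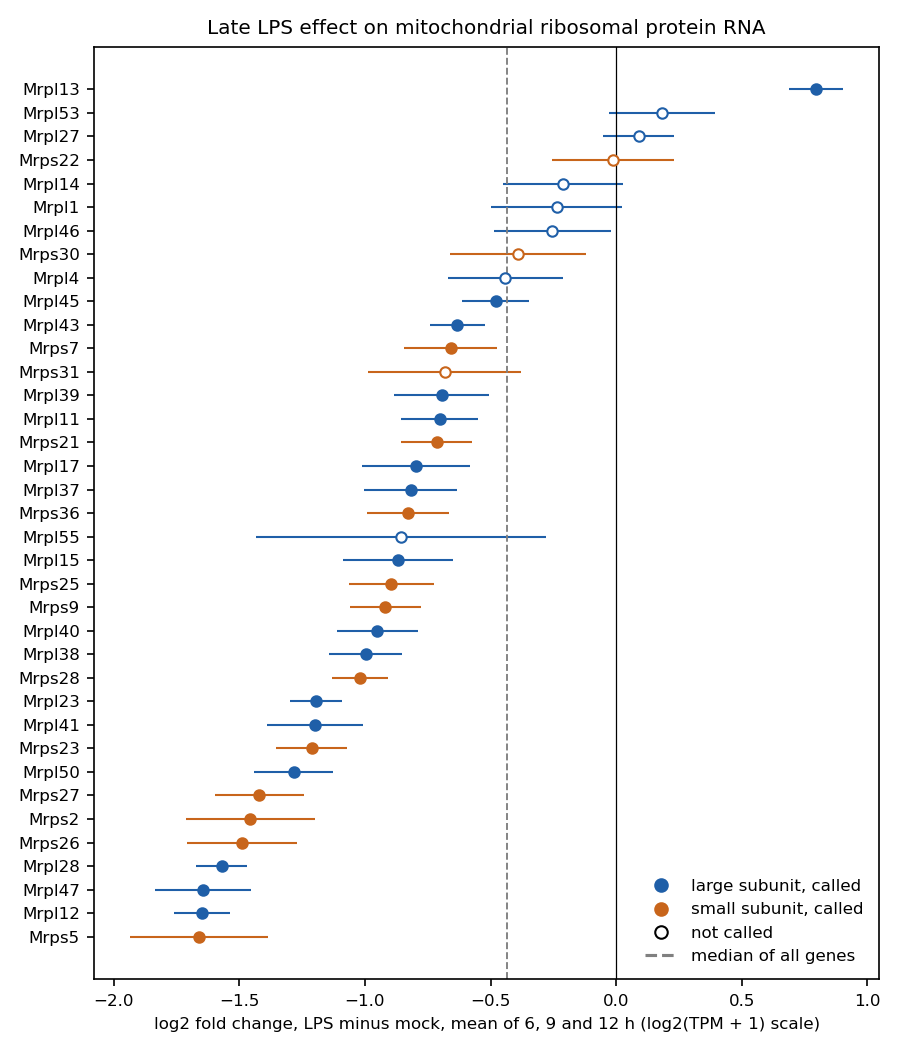
Late log2 fold change (mean of 6, 9 and 12 h, LPS minus mock) of each of the 37 genes, with bars for 1 SE, filled where called and coloured by subunit. Mrps5 lies lowest at -1.66 and Mrpl13 highest at 0.80, and most genes lie left of the dashed median of all genes at -0.43.

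The most abundant member of the small subunit, Mrps21, a protein of bacterial type, fell less than most. It had 262, 279.5 and 305 TPM in the late LPS libraries and 424, 462 and 506 TPM in the late mock libraries, with 453 and 455 TPM at 0 h. The arms did not overlap, and the late log2 fold change was -0.71 ± 0.14 (limma adjusted p = 0.000317), a call lost on rescaling (-0.31, adjusted p = 0.0804). Mrps36, since also described as a subunit of the alpha-ketoglutarate dehydrogenase complex, had 75.6, 80.4 and 90.3 TPM with LPS against 115, 146 and 182 TPM with mock. It too was lower in all 6 LPS libraries, by -0.83 ± 0.16 (limma adjusted p = 0.000326). Mrpl23, a large subunit protein at the tunnel exit, had 63.3, 88.5 and 113 TPM with LPS and 171, 199.9 and 226 TPM with mock. Its arms were well apart, with a late log2 fold change of -1.19 ± 0.10 (limma adjusted p = 4.38e-08). By mean TPM, Mrpl14 (193), Mrpl12 (167) and Mrpl23 (159) led the large subunit, and Mrps21 (384), Mrps36 (123) and Mrps26 (107) the small one.

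**Figure D3:**
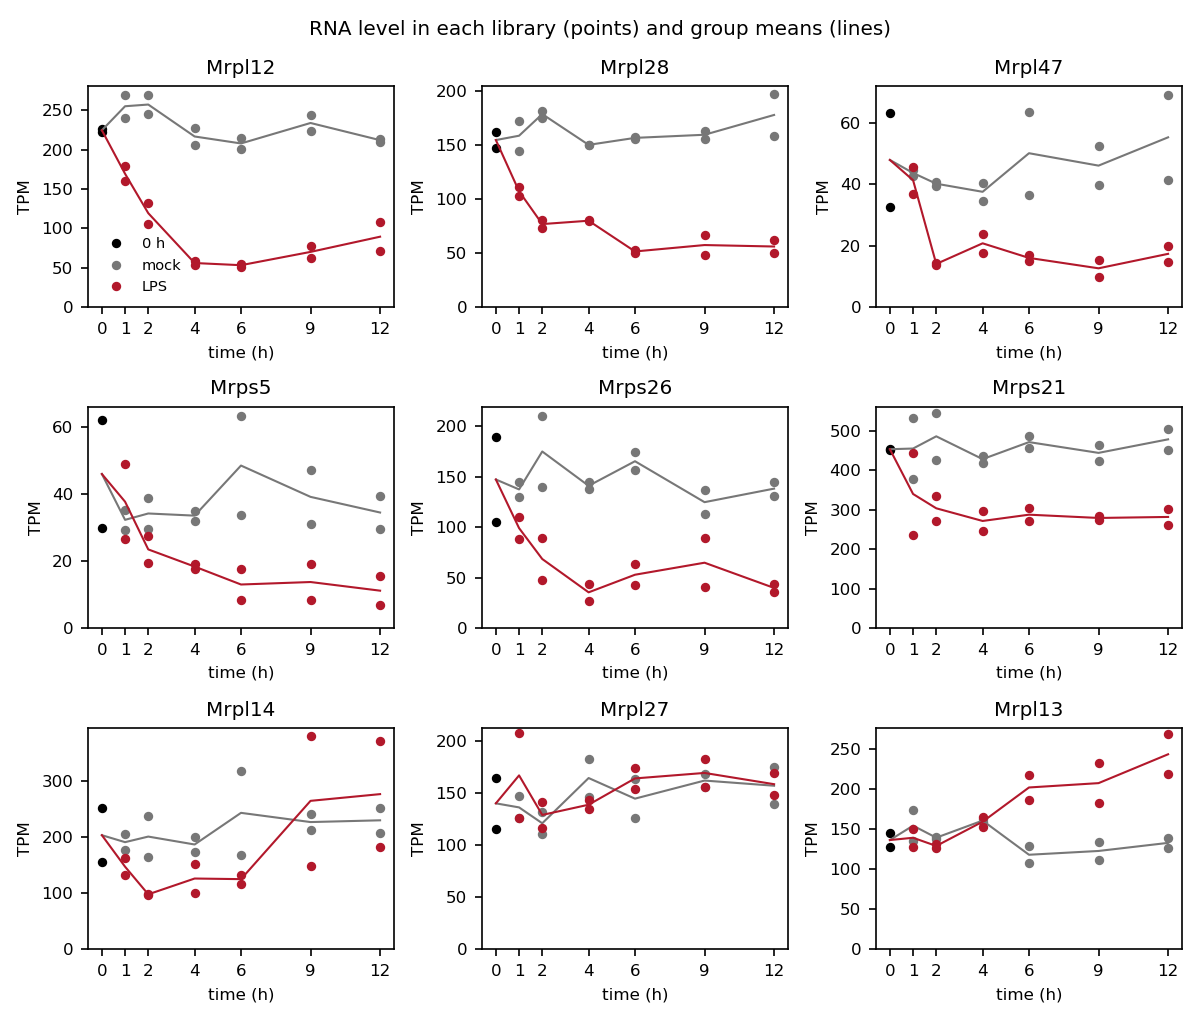
RNA level in TPM by time in hours for 9 genes, with libraries as points and group means as lines, including the shared 0 h libraries. Mrpl12, Mrpl28, Mrpl47, Mrps5, Mrps26 and Mrps21 are lower with LPS late, Mrpl27 overlaps late, Mrpl14 has split replicates at 9 and 12 h, and Mrpl13 is higher from 6 h on.

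As deposited, the 2 subunits moved in the same direction. Late, 15 of 23 large subunit genes were called lower and 1 higher (median -0.80). Of 14 small subunit genes 11 were called lower and 0 higher (median -0.91). Among all genes 47.7% were called lower and 15.5% higher. The difference of the medians, small minus large, was -0.11, or -0.17 with Mrps30 counted in the large subunit, where the structure of the mammalian ribosome places it. After rescaling, 9 of the 14 small subunit genes were among the 17 called lower, 0 were called higher, and the difference of the medians was -0.13. All 3 genes called higher on rescaling, Mrpl13, Mrpl27 and Mrpl53, were of the large subunit. Of all genes 25.9% were then called lower and 26.2% higher. Mrps36 was kept in the small subunit by its name in all counts, sums and ratios. Mrps30 itself had 13.8, 25.3 and 35.1 TPM with LPS against 16.1, 37.3 and 41.9 TPM with mock, overlapping arms and no call (-0.39 ± 0.27, limma adjusted p = 0.215). With the replicate number in the fit Mrps30 was called lower (adjusted p = 0.0484), and on rescaling its value was 0.0028. Genes with a bacterial counterpart and genes without one had like counts as deposited, with 13 of 19 called lower (median -0.86) and 13 of 18 (median -0.82). The share of all genes called lower was 47.7%.

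In summed TPM the small subunit gave way more than the large. The small to large ratio was 0.388 to 0.554 in the 6 late LPS libraries and 0.567 to 0.644 in the 6 late mock libraries, so the arms did not overlap. By hour, the LPS mean of this ratio was 86.1% of the mock mean at 6 h, 80.0% at 9 h and 72.5% at 12 h. Sums are led by the abundant genes, and the rise of Mrpl13 enters them. Without Mrpl13, a check chosen after seeing the data, the late ratios were 0.462 to 0.654 with LPS and 0.600 to 0.689 with mock, and the arms overlapped at 6 h and 9 h but not at 12 h. Between libraries of the same replicate number, this ratio was lower with LPS in both pairs at 6, 9 and 12 h. Without the most abundant gene of each subunit, Mrpl14 and Mrps21, also chosen after seeing the data, the late ratios were 0.266 to 0.334 with LPS and 0.388 to 0.436 with mock, and did not overlap. Taken by the middle gene of each subunit, the median log2 difference, small minus large, ran from -0.70 to 0.03 with LPS and from -0.45 to -0.02 with mock over the late libraries, and these ranges overlapped. By hour, both LPS libraries lay below both mock libraries at 6 h (-0.40 and -0.46 against -0.28 and -0.03) and at 12 h (-0.50 and -0.51 against -0.36 and -0.45). At 9 h the LPS libraries stood on either side of the mock ones, at 0.03 and -0.70 against -0.41 and -0.02.

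The fall began early. At 1 h 1 gene was called lower (0.794% of all genes), at 2 h 10 (8.04%), at 4 h 16 (29.2%), at 6 h 22 (30.0%), at 9 h 23 (30.0%) and at 12 h 19 (26.8%). None was called higher at 1, 2 or 4 h (3.27%, 6.39% and 8.74% of all genes), and Mrpl13 alone was called higher at 6, 9 and 12 h, where 11.2%, 10.1% and 10.0% of all genes were. At 2 h the mitochondrial ribosomal proteins were thus called lower at 27.0%, with a median log2 fold change of -0.60 against -0.16 for all genes. With the replicate number in the fit, 7 genes were called at 1 h and 25 at 4 h. Counts from that fit, here and below, are given without its share of all genes and are not read against a background. In either direction, calls numbered 5 at 1 h without the first LPS library and 0 without any other 1 of that hour, 5 at 2 h without the second mock library, and 11 at 12 h without the first mock library. At 9 h they numbered 14 without either mock library and 15 without the first LPS library. After rescaling, 8 genes were called lower at 2 h (5.18% of all genes), 6 at 4 h (12.9% of all genes), 12 at 6 h (14.7%), 7 at 9 h (12.8%) and 9 at 12 h (13.9%). Over the joint F test of all 6 times, 27 of the 37 genes passed, against 57.2% of all genes.

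Mrps25, a small subunit protein found only in mitochondria, was the gene called at 1 h. It had 15.6 and 6.55 TPM with LPS against 23.9 and 22.7 TPM with mock, both LPS libraries being lower, and a log2 fold change of -1.12 ± 0.29 (limma adjusted p = 0.0409). The adjusted p rose to 0.240 and 0.160 without the first or the second mock library at 1 h, and to 0.567 without the second LPS library. Mrpl55 of the large subunit had 36.4 TPM in the first LPS library at 1 h and was listed at 0 in the second, against 60.6 and 56.6 TPM with mock, and was not called.

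At 2 h the largest called falls were those of Mrps27, Mrpl1 and Mrpl47. Mrps27, a small subunit protein found only in mitochondria, had 5.41 and 4.49 TPM with LPS against 16.6 and 16.0 TPM with mock (-1.54 ± 0.31, limma adjusted p = 0.00212). Mrpl1, part of a mobile arm of the large subunit in bacteria, had 13.2 and 6.76 TPM with LPS against 23.7 and 36.6 TPM with mock (-1.54 ± 0.45, limma adjusted p = 0.0293). Mrpl47 had 13.7 and 14.5 TPM with LPS against 39.6 and 40.9 TPM with mock (-1.45 ± 0.33, limma adjusted p = 0.00617). In all 3 both LPS libraries were below both mock libraries. The call of Mrpl1 was lost without the first mock library (adjusted p = 0.0528), the second (0.213) or the second LPS library (0.265), and on rescaling (0.0552).

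At 4 h Mrps26 stood lowest, at 44.0 and 27.0 TPM with LPS against 145 and 137 TPM with mock (-2.003 ± 0.38, limma adjusted p = 0.000591). Mrpl12 had 53.6 and 58.3 TPM with LPS against 206 and 227 TPM with mock (-1.93 ± 0.19, limma adjusted p = 9.6e-07), close to its lowest point at 6 h, 51.4 and 54.98 TPM (-1.95 ± 0.19, adjusted p = 6.54e-07). Mrps27 had its largest falls at the same hours, of -1.77 ± 0.31 at 4 h and -1.84 ± 0.31 at 6 h. Mrps5 fell later, with 8.49 and 17.5 TPM with LPS against 33.8 and 63.1 TPM with mock at 6 h (-1.83 ± 0.48, limma adjusted p = 0.00533). That call was lost without the second mock library (adjusted p = 0.0740) or the first LPS library (0.0837) at 6 h.

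At 9 h the largest falls were those of Mrpl47 (-1.80 ± 0.33), Mrpl12 (-1.73 ± 0.19) and Mrps2 (-1.66 ± 0.44), a small subunit protein with a bacterial counterpart. The call of Mrps2 at 9 h was lost without the first mock library (adjusted p = 0.0573) or the second LPS library (0.104). At 12 h they were those of Mrps26 (-1.78 ± 0.38), Mrpl28 (-1.65 ± 0.18) and Mrps5 (-1.62 ± 0.48). The call of Mrps5 at 12 h was lost without the second mock library (adjusted p = 0.0929), without the first LPS library (0.152) and on rescaling (0.0622). Mrpl13 rose by 0.77 ± 0.19 at 6 h, 0.75 ± 0.19 at 9 h and 0.86 ± 0.19 at 12 h, and its 9 h call was lost without the second mock or the first LPS library (adjusted p = 0.0539 in both).

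**Figure D4:**
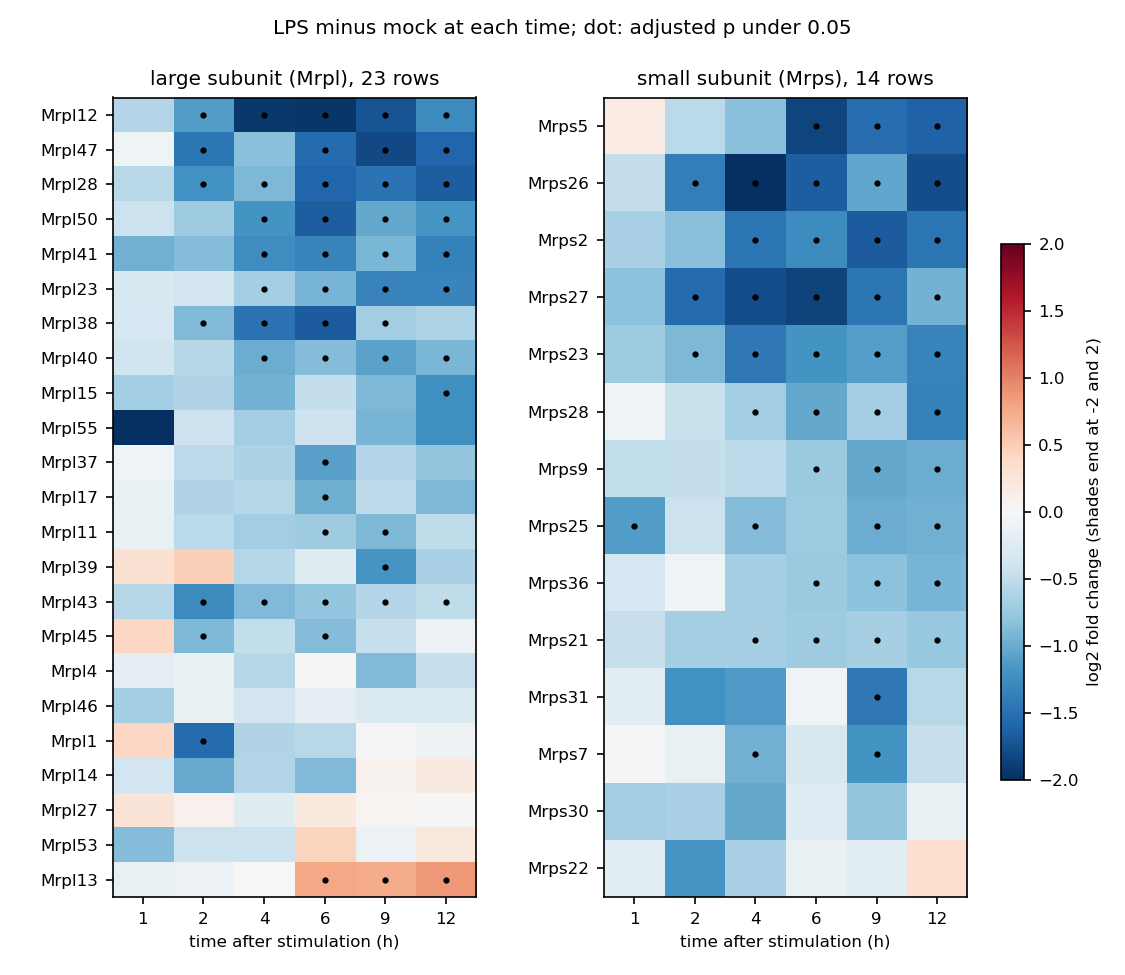
LPS minus mock log2 fold change at each time for the large (left) and small (right) subunit genes, in order of the late effect, with a dot where called. Calls for falls number 1 at 1 h and 23 at 9 h, and the Mrpl13 line alone has calls for a rise, at 6, 9 and 12 h.

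Genes differed in the number of times at which they were called lower. Mrpl12, Mrpl28, Mrpl43, Mrps23, Mrps26 and Mrps27 were called lower at all 5 times from 2 h on, and 10 further genes at 4 times. In all, 16 of 37 genes were called lower at 4 or more times, against 15.8% of all genes, and 9 were called lower at none, against 54.6%. Mrpl43, a large subunit protein found only in mitochondria, was lowest at 2 h, with 51.6 and 54.8 TPM with LPS against 135 and 125 TPM with mock (-1.27 ± 0.19, limma adjusted p = 0.000148). By 12 h its LPS libraries were at 100.3 and 112 TPM against 165 and 140 TPM with mock (-0.51 ± 0.19).

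The early effect, the mean over 1 and 2 h, was called lower for 11 genes and higher for 0, against 9.72% of all genes called lower and 8.39% higher. After rescaling 8 were called lower, against 6.26% of all genes. With the replicate number in the fit 21 were called, without the first mock library at 1 h 6, and without the first mock library at 2 h 7. In 12 genes the 4 early LPS libraries lay below the 4 early mock libraries (10.7% of all genes) and in 0 above them (8.13%). The largest called early falls were those of Mrps27 (-1.18 ± 0.22), Mrps26 (-0.93 ± 0.27) and Mrpl43 (-0.92 ± 0.13). The early call of Mrps26 was lost without any 1 of 5 libraries, at adjusted p from 0.0555 to 0.118.

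The test of the late effect against the early effect called 8 genes lower (22.2% of all genes) and Mrpl13 higher (8.17% of all genes). Mrps5 had the largest difference, -1.47 ± 0.43 (limma adjusted p = 0.0169). At 1 h it had 26.6 and 48.8 TPM with LPS against 29.3 and 35.3 TPM with mock, overlapping groups. Mrpl39, a large subunit protein found only in mitochondria, was next at -1.09 ± 0.30 (limma adjusted p = 0.0121). At 2 h it had 85.4 and 85.7 TPM with LPS against 63.2 and 59.7 TPM with mock, both LPS libraries higher though not called, and at 9 h 37.9 and 17.3 TPM against 67.8 and 51.9 TPM, both lower. Mrpl47 differed by -0.87 ± 0.30 (limma adjusted p = 0.0369), a call lost without any 1 of 13 libraries at adjusted p from 0.0575 to 0.0813. Mrpl13 differed by 0.92 ± 0.17 (limma adjusted p = 0.00065). After rescaling only Mrpl23 was called lower (-0.53), against 10.5% of all genes, and Mrpl13, Mrpl43 and Mrpl53 were called higher (1.25, 0.61 and 1.14), against 13.3%.

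No gene of the group was called for a return, tested as the mean effect at 9 and 12 h minus that at 4 and 6 h, where 3.97% of all genes were called by limma, 1.33% lower and 2.64% higher. At an unadjusted limma p under 0.05 stood 4 of the 37 genes and 538 of all 3147. With the replicate number in the fit 1 of the 37 was called, and with 0.1 added in place of 1 also 1. Nor was any of the 37 genes called between late mock and 0 h, where 0 of 3147 genes were called (0.0%), with 0 of the 37 and 89 of all genes at an unadjusted limma p under 0.05.

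The cytosolic ribosomal proteins (70 genes) and the nuclear-encoded respiratory chain subunits (57 genes) were set beside the mitochondrial ones, with no test between the lists. At 2 h 0 of 70 cytosolic ribosomal proteins and 1 of 57 respiratory chain subunits were called lower, against 10 of 37 mitochondrial ribosomal proteins. Among all genes 8.04% were called lower at 2 h. At 4 h the counts were 1, 10 and 16 (1.43%, 17.5% and 43.2%, against 29.2% of all genes). At 12 h they were 44, 36 and 19 (62.9%, 63.2% and 51.4%, against 26.8%). The late effect was called lower in 59 (84.3%), 45 (78.9%) and 26 (70.3%), against 47.7% of all genes. A late fall was thus not particular to the mitochondrial ribosomal proteins. Late medians of the lists were, in the same order, -0.56, -0.69 and -0.83. Falls at 2 h and 4 h were also seen among the other genes of mitochondrial translation described below. Of 19 such genes, the further ribosomal subunits not counted, 5 were called lower at 2 h (26.3%) and 8 at 4 h (42.1%). Within a library, the ratio of summed cytosolic to summed mitochondrial ribosomal protein RNA does not depend on scaling. It was 79.4 and 93.8 with LPS against 62.8 and 73.1 with mock at 2 h, and 91.3 and 112 against 62.2 and 67.6 at 4 h. At 12 h it was 64.7 and 71.9 with LPS against 65.4 and 74.1 with mock. The ratio was above mock at 2, 4 and 6 h in both libraries and overlapped mock at 1, 9 and 12 h. Between libraries of the same replicate number it was higher with LPS in both pairs at 1 h and 9 h and lower in both at 12 h.

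The late counts of the other genes of mitochondrial translation are read beside the 47.7% of all genes called lower. All 3 further ribosomal subunits were called lower late, namely Gadd45gip1 of the large subunit (-0.95 ± 0.17), the release factor relative Ict1 (-0.88 ± 0.19) and Dap3 of the small subunit (-0.84 ± 0.13). Of 4 genes listed with the translation factors, 3 were called lower, the elongation factors Tsfm (-1.23 ± 0.15) and Gfm1 (-0.83 ± 0.15), and Letm1 (-0.95 ± 0.17). Letm1 is an inner membrane protein and not itself a translation factor. The elongation factor Tufm was not called (-0.76 ± 0.40). Of 4 mitochondrial tRNA synthetases, 2 were called lower, Gars, which also serves the cytosol (-0.76 ± 0.23), and Hars2 (-0.51 ± 0.18), a share near that of all genes, with a median of -0.45 against -0.43. Of 11 genes of ribosome assembly and mitochondrial RNA, 7 were called lower and 1 higher. The falls were led by Hsd17b10, a subunit of mitochondrial RNase P (-2.04 ± 0.33), and the protease subunit Clpp (-1.53 ± 0.13). The rise was that of Pnpt1, listed as Pnpt1;Old35, an RNA exonuclease that is known to be induced by interferon (1.07 ± 0.17).

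RefSeq promoters (250 bases before to 50 after the annotated start, build GRCm38.p6) were matched by symbol for 32 of the 37 genes. They were searched on both strands for GCGCATGCG (nuclear respiratory factor 1), CCGGAAG (ETS family, which includes GABP) and ATGGCGGC (YY1), motifs of factors known from nuclear genes for mitochondrial proteins. At least 1 match stood in 14 of the 32 genes (43.8%). Counted by gene in the same way, it stood in 13.4% of all 27025 genes with RefSeq promoters and in 32.1% of the 2545 in the RNA table. The ETS motif was in 9 (28.1%, against 9.93% and 23.2%) and YY1 in 7 (21.9%, against 2.605% and 7.07%). Nuclear respiratory factor 1 was in 2 (6.25%, against 1.95% and 5.42%). Of the genes with a match 10 of 14 were called lower late, and of those without one 13 of 18, with medians of -0.76 and -0.88. The bases upstream of the start are shown for 2 genes with large falls, Mrps26 (chr2:130563507-130563756, plus strand) and Mrps27 (chr13:99344536-99344785, plus strand), for Mrpl43 with its early low point (chr19:45006443-45006692, minus strand) and for Mrpl39 with its later fall (chr16:84735245-84735494, minus strand). Each is written 5′ to 3′ and ends at the base before the start, with matches in capitals. CTTCCGG is the ETS motif on the other strand, and the Mrpl39 capitals are 2 overlapping matches, 1 on each strand.
Mrps26: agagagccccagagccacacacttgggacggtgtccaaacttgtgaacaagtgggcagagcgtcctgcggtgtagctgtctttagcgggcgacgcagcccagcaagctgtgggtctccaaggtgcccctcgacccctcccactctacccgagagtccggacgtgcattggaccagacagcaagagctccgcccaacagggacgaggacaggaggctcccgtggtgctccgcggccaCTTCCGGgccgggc
Mrps27: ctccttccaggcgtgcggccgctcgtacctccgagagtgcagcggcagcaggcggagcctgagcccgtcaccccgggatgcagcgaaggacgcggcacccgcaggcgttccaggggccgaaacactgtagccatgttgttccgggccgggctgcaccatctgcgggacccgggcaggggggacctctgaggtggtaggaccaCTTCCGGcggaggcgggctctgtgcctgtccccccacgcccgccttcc
Mrpl43: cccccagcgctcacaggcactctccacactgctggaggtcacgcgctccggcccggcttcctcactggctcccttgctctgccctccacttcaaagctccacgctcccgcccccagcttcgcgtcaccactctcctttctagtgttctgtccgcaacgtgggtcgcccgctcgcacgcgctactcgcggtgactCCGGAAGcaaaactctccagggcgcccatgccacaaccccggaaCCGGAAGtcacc
Mrpl39: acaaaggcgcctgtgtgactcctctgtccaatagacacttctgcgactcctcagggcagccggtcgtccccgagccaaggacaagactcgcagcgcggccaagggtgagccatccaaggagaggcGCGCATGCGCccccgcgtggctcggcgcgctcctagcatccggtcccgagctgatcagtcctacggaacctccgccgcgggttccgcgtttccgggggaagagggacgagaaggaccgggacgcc
The ETS match lies 14 bases before the start in Mrps26, 48 in Mrps27, and 56 and 12 in Mrpl43, and the Mrpl39 match begins 125 bases before it. Each gene shown is one with a match before the start. Of other genes with large late falls, Mrpl12, Mrpl28 and Mrpl47 had no match, and that of Mrps5 lay after the start. Every YY1 match, including that of Mrps27, lay after the start and is not shown. A match is a description of the letters and not a site of binding.

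Ribosome footprints, the stretches of RNA covered by translating ribosomes, were listed for 65 mitochondrial ribosomal protein genes of resting cells. Whether these values were divided by gene length is not stated, so the order of genes by footprint may hold length as well as translation. The highest means were those of Mrpl33 (158), Mrps21 (147) and Mrps14 (114), and the lowest those of Mrps9 (14.5), Mrpl37 (13.8) and Mrps5 (12.5), in values that sum to 1000000 per library. The 33 genes without an RNA row had a median of 36.2 and the 32 with one a median of 33.2. The 3 paralogues Mrps18c, Mrps18b and Mrps18a had 52.1 and 79.9, 34.2 and 39.0, and 28.6 and 36.2 in the 2 libraries. Mrps18c was thus above the others in both, while Mrps18b and Mrps18a overlapped, and none of them had an RNA row. Mrps18a, like Mrps30, sits in the large subunit despite its name. Mrps30 had 19.9 in both libraries. The small to large ratio of summed footprints was 0.569 and 0.585.

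Across the 32 genes with both values, footprints spread less than RNA. The standard deviation over genes of the log2 level was 0.85 for footprints and 1.16 for RNA, while for the 2896 genes in both tables it was 1.81 for each. Cytosolic ribosomal proteins had 0.55 for footprints and 1.195 for RNA. Relative to the median gene, 7 of the 32 genes had fewer footprints than RNA and 5 had more, 37.5% in all against 27.7% of all shared genes. The call rests on few libraries. Without the first or the second footprint library 1 and 2 of the 32 were called, and without the first or the second 0 h RNA library 22 and 17.

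Among large subunit genes the lowest footprint values for their RNA were those of Mrpl13, Mrpl12 and Mrpl14. Mrpl13 had 21.8 and 28.5 in footprints and 128 and 145 TPM in RNA (-1.55 ± 0.25, limma adjusted p = 0.0135). Mrpl12 had 51.6 and 53.8 in footprints and 227 and 223 TPM in RNA (-1.22 ± 0.22, limma adjusted p = 0.0171), and Mrpl14 49.2 and 43.7 and 155 and 251 TPM (-1.21 ± 0.33, limma adjusted p = 0.0411). The highest were those of Mrpl50, Mrpl15 and Mrpl41. Mrpl50 had 38.3 and 46.3 in footprints and 29.1 and 24.9 TPM in RNA (1.48 ± 0.23, limma adjusted p = 0.0118), above Mrpl15 (1.19 ± 0.27, adjusted p = 0.0271) and Mrpl41 (1.06 ± 0.26, adjusted p = 0.0323). Among these 6 genes, only Mrpl13 kept its call without the second footprint library, and its call was lost without the first (adjusted p = 0.116).

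Among small subunit genes Mrps25 had the most footprints for its RNA, 46.8 and 41.7 in footprints against 24.0 and 19.7 TPM (1.84 ± 0.23, limma adjusted p = 0.00798), and it kept its call when either footprint library was left out. Mrps22 (0.77 ± 0.39) and Mrps27 (0.29 ± 0.29) followed without a call, but without the first 0 h RNA library both were called, at 1.30 (adjusted p = 1.65e-06) and 0.54 (adjusted p = 0.00991). Mrps26 had the fewest, 27.9 and 26.1 against 105 and 189.8 TPM (-1.49 ± 0.35, limma adjusted p = 0.0302), then Mrps9 (-1.09 ± 0.22, adjusted p = 0.0220) and Mrps5 (-0.86 ± 0.39, not called). Without the first 0 h RNA library Mrps5 was called at -1.43 (adjusted p = 2.41e-07). The calls of Mrps26 and Mrps9 were lost without either footprint library, at adjusted p from 0.0666 to 0.237. Mrps30, which had 46.0 and 29.6 TPM in RNA at 0 h, was at -0.01 ± 0.26.

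**Figure D5:**
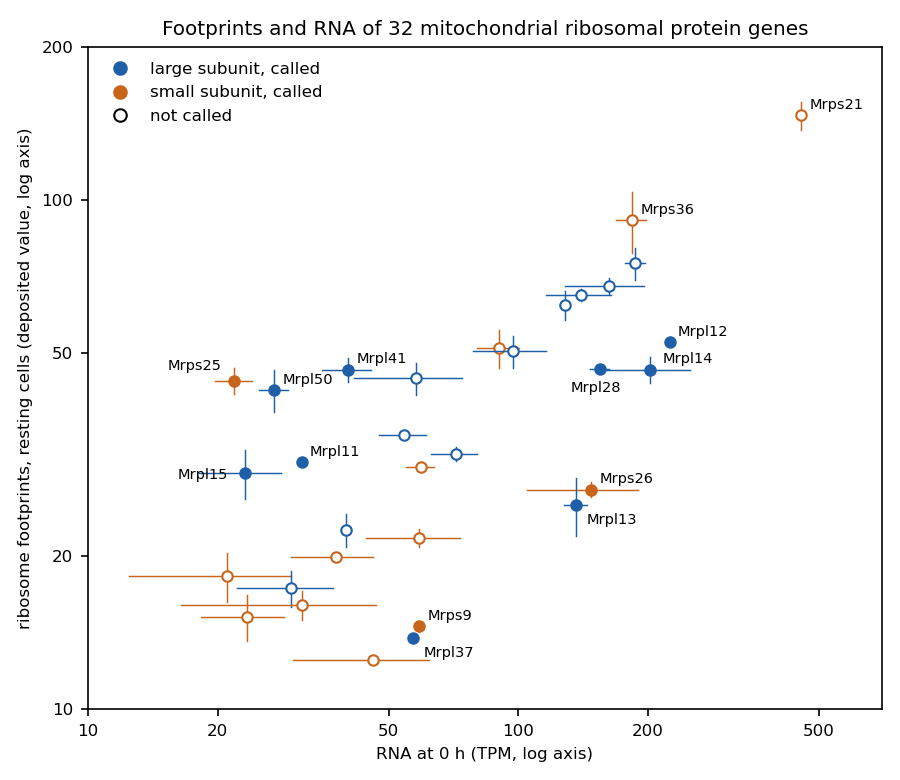
Resting ribosome footprints against 0 h RNA (TPM) for 32 genes, both on log axes, with lines joining the 2 libraries of each kind, filled points where the ratio was called and colours for the subunit. Mrps25, Mrpl50 and Mrpl15 lie high for their RNA, and Mrpl13, Mrps26 and Mrpl12 lie low.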

How the data were processed

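Values were deposited by the authors as TPM for 26 RNA libraries, with Bowtie 0.12.7, RSEM 1.2.3 and build mm9 named in the submitters' processing notes. Columns sum to 1000000 over the listed genes, and how the genes were selected is not given in the sources used here. The 2 footprint columns, also deposited by the authors with that total, were taken as TPM, and Bowtie2 and TopHat2 are named for them without versions per the submitters' processing notes. Depth is unknown, so precision rests on the 2 libraries of a group. The 0 h columns are deposited under both arm names, the repeats were identical, and each was used once. Descriptions of the 4 h samples name another hour, and the titles and the table, which say 4, were followed.

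To log2(TPM + 1) of all 3147 genes a model was fitted (limma 3.58.1, R 4.3.3) with 1 mean per group, a variance trend and Benjamini-Hochberg adjustment over all genes. Footprints and 0 h RNA were fitted over 2896 shared genes, each library centred on its median gene. The late, early, late minus early and last minus middle effects are contrasts of that fit. The main fit held no term for the replicate number, which entered only as an alternative. Libraries of equal replicate number were compared as pairs only where stated. The LPS and mock differences between replicates correlated across genes by 0.51, 0.68, 0.23, 0.65, 0.68 and 0.53 at 1, 2, 4, 6, 9 and 12 h. Between any 2 groups these differences correlated by 0.05 to 0.83, above 0.1 in 76 of 78 pairs of groups. The correlation was thus not particular to LPS and mock of the same hour. A difference by replicate number ran through most of the series, and the main fit left it in its estimate of the spread. Its p-values can therefore differ from those of the fit with a replicate term. The steps were tested on simulated data. Members and gene lists were chosen with earlier results of these data known. Genes given by library are the 5 lowest and 5 highest late effects and the 3 most abundant of each subunit. Genes given with a test include the 3 largest calls each way per comparison and the 3 highest and lowest footprint ratios of each subunit, while Mrpl43, Mrpl55, the library values of Mrpl39 and the genes with the highest and lowest footprints were chosen after their values were seen. Alternatives were 0.1 or 5 added before the logarithm, a mean of at least 10 TPM, median-ratio rescaling, removal of length and GC trends (from a GRCm38 annotation), a replicate term, and leaving out each library. Tables and figures were made with Python 3.11.15 and matplotlib 3.10.9.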

Additional observations from a re-analysis of the deposited data

Results flagged for a closer look

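In 9 genes the LPS effect differed between late and early times by limma's test of that difference (adjusted p under 0.05), which is 24.3% of the 37, against 30.4% of all genes. It was more negative late in Mrps5 (-1.47), Mrpl39 (-1.09), Mrpl47 (-0.87), Mrpl23 (-0.85), Mrpl12 (-0.80), Mrps28 (-0.76), Mrpl50 (-0.71) and Mrpl28 (-0.69), and more positive late in Mrpl13 (0.92), all on the log2(TPM + 1) scale. After median-ratio rescaling 1 of the 8 falls, Mrpl23, and the rise of Mrpl13 were still called, and 2 further genes, Mrpl43 and Mrpl53, were called higher.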

How the results depend on the processing

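The late count, 27 genes, was 27 to 30 under every setting but median-ratio rescaling, which gave 20. Rescaling also gave 6 calls at 4 h, 13 at 6 h, 8 at 9 h, 10 at 12 h and 4 for late minus early, and turned 5 uncalled late values positive (Mrps30 0.0028, Mrpl46 0.14, Mrpl1 0.16, Mrpl14 0.20 and Mrps22 0.37). Mrpl14 was also positive with length and GC trends removed (0.17) and, at 0.014, without the first LPS library at 9 h, and ran from -0.44 to 0.014 over the late libraries left out. Mrps22 ran from -0.24 to 0.21, and was positive without any 1 of 6 libraries. Leaving out 1 library gave 0 to 5 calls at 1 h, 5 to 8 at 2 h, 14 to 17 at 9 h, 11 to 17 at 12 h, 6 to 12 early, 0 to 1 for last minus middle and 1 to 22 for footprints. With 1 library left in a group, that library was assumed to vary like the others. Leaving out 1 library also left the replicate numbers unbalanced between the arms, in a fit without a replicate term. The causes were not tested. With 0.1 added, last minus middle had 1 call. Fits with the replicate block gave 7 calls at 1 h, 25 at 4 h, 21 early and 1 for last minus middle, and moved no other count by more than 1.5 times. Shares of all genes called in fits with that block are not given. The added calls are thus not set against a background. Fits with the block added late calls for Mrpl4, Mrps30 and Mrps31 and took none away. With 2 libraries a group and no read depth, a gene that missed the threshold is not shown to be unchanged.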

Other observations

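Within the group, late fold change showed little relation to level or base composition across the 37 genes, as a description only, since the genes share their libraries. Spearman's rho was 0.05 with mean TPM, -0.02 with GC content and -0.25 with transcript length, while over all genes the values were 0.20, -0.16 and 0.13. Transcripts of the group were short, with a median length of 1411 bases against 2856 for all matched genes.

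Of the 33 genes with footprints and no RNA row, several stood among the highest of the 65 mitochondrial ribosomal protein genes with footprints. Mrpl33, a small large-subunit protein of bacterial type, had 139.8 and 177, Mrps14 had 121 and 107, and Mrpl52 had 103 and 105. The lowest of the 33 was Mrps35, at 20.2 and 19.3.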
